A study of Drosophila melanogaster with 24 samples.

Results

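The genes described here copy the chromosomes and divide the cell: origin and licensing factors, DNA synthesis enzymes, the cyclins and kinases of G1 and S phase, and the kinases, inhibitors and structural proteins of mitosis. A list of 48 such genes was matched by gene symbol to the probe sets of a Drosophila melanogaster array. Of these, 35 had a probe set named for that gene alone, and 33 of the 35 reached a log2 signal of 5 in at least 3 of 24 arrays, so that 33 of 5736 tested genes and unnamed probe sets are followed below. They comprise 11 of 16 listed replication genes, 7 of 8 listed G1 and S regulators and 15 of 24 listed mitotic genes.

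Whole embryos were collected from mothers homozygous for arm-GAL4, in which the armadillo promoter drives the yeast activator GAL4 in all tissues, so every group below, controls included, carries that driver. Control embryos had w1118 fathers. Fathers carrying UAS-NotchICD gave embryos with the activated Notch intracellular domain (the Notch cross), fathers carrying UAS-Ras85D(V12), which the series text also writes UAS-Ras1V12, gave embryos with an activated form of Ras (the Ras cross), and fathers carrying both gave the combined cross. Each cross was frozen in 2 windows of age after egg laying: early, at 5 h 45 min to 6 h 45 min, and late, at 7 to 8 h. Each of the 8 groups had 3 arrays, described in the labels as independent experiments, and each RNA came from a large pool of embryos of mixed cell types. In such a mixture, fewer cells of a type and less RNA per cell cannot be told apart.

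In each division cycle the origin recognition complex and the licensing factor Cdt1, called double parked in flies, load the MCM helicase onto origins. Cyclin E with Cdk2 then starts S phase, E2F with its partner Dp drives transcription of many S phase genes, and mitotic cyclins with Cdk1 bring the cell into mitosis, which ends when the anaphase promoting complex marks those cyclins for destruction. In the fly embryo most epidermal cells stop dividing at about the ages sampled here, with a fall in Cyclin E and a rise in the APC activator fizzy-related, while the neural stem cells, the neuroblasts, go on dividing. Mothers also load many of these transcripts into the egg.

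Values are the authors' log2 GCRMA signals, on which a step of 1 multiplies the probe set signal by 2. Array medians lay between 4.04 and 4.22, and between 5369 and 5677 probe sets reached log2 5 on each array. Changes are limma estimates ± SE from 1 fit over all 24 arrays (n = 3 per group), and a gene was called at a Benjamini-Hochberg adjusted p under 0.05 over all 5736 features. Levels are set against each other only within a gene, since probe sets differ in how brightly they hybridise.

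Not every listed gene could be followed. Orc2, a subunit of the origin complex, stayed between 3.00 and 4.66 (median 3.79), and Bub1, a spindle checkpoint kinase, between 4.55 and 4.74 (median 4.62), so neither reached log2 5 on any array. The dimmest gene kept was cid, the centromeric histone, at 3.94 to 5.25 with a median of 4.75. It reached log2 5 on 7 early arrays, all with a transgene, and on no late or control array, so it was kept through the window where it is high, and counts of genes lower late are also given without it. A further 13 had no probe set named for them alone: Orc6, geminin, Mcm7, RnrS, dap, CycA, Cdk1, stg, polo, aurA, BubR1, Klp3A and pav. Mitotic entry is therefore represented by CycB and CycB3 alone.

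In control embryos most of these genes fell between the windows. Of the 33, 27 were called lower late (26 without cid), where 13.1% of all tested features were called lower, and 2 were called higher (18.3% of features). The median change was -0.57 on the log2 scale, against -0.00 over all features. All 11 replication genes fell, 13 of 15 mitotic genes fell, and 3 of 7 G1 and S regulators fell. With each array centred on its median 28 were lower and 2 higher (19.6% of features lower), and the share of higher among all called features went from 58.3% to 44.3%. The 2 that rose were Cdk4, the kinase partner of Cyclin D, and fzr (fizzy-related).

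**Figure D1:**
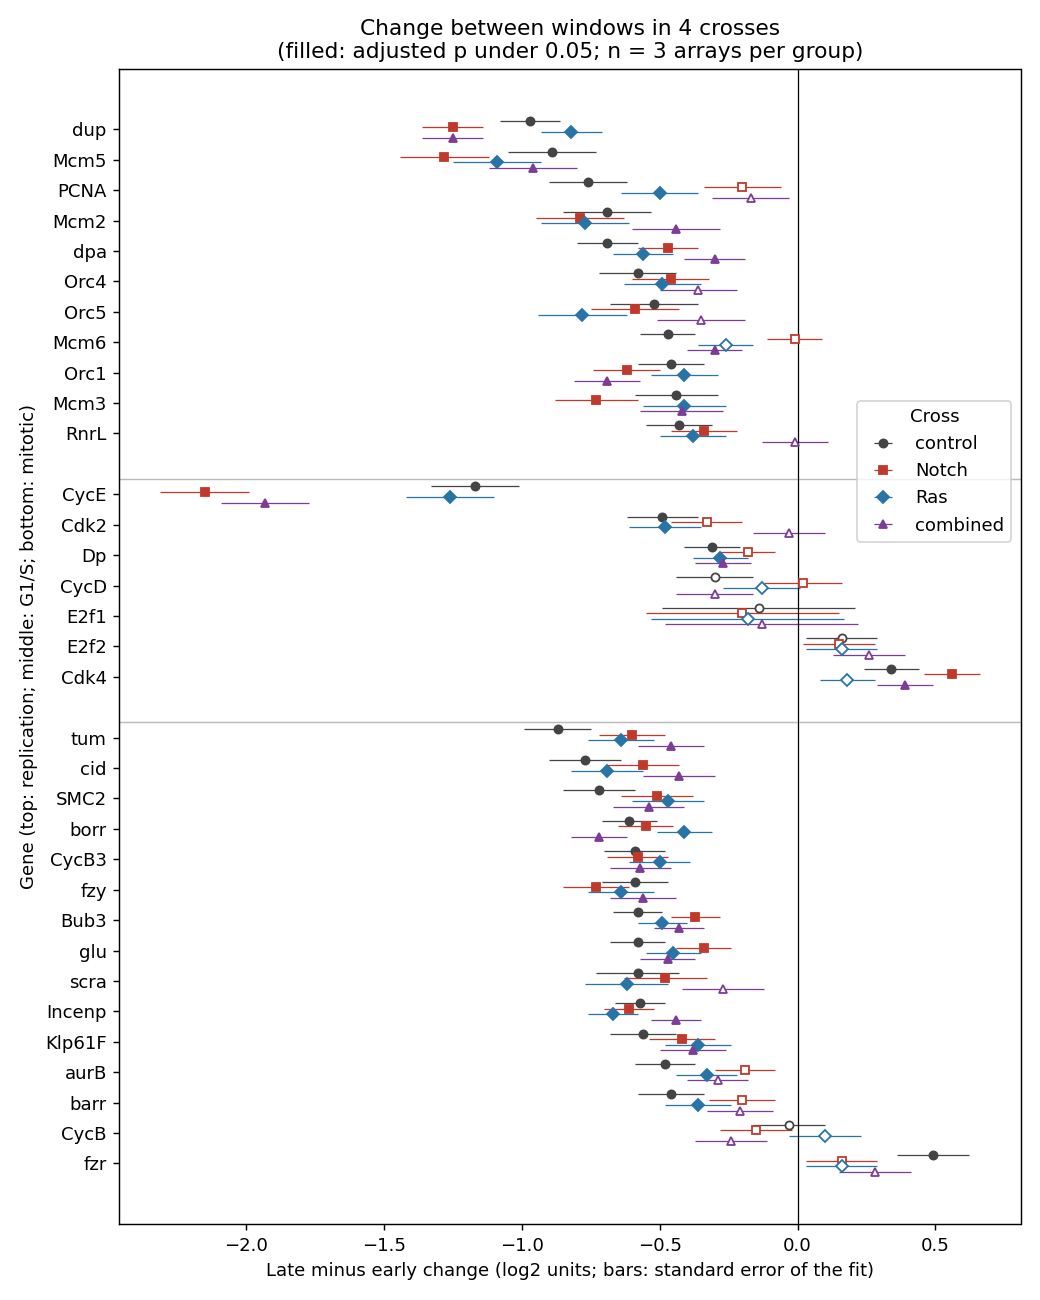
Late minus early change (log2, limma estimate) of each of the 33 genes in the control, Notch, Ras and combined crosses, 1 row per gene with replication genes at the top, G1 and S regulators in the middle and mitotic genes at the bottom; bars are the SE, and filled points were called at an adjusted p under 0.05. Most points lie left of 0 in all 4 crosses, with CycE farthest left at -1.17 in control and -2.15 in the Notch cross, and Cdk4 and fzr right of 0.

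Among origin and licensing factors, dup, the fly Cdt1, fell furthest. Its control arrays read 9.99, 9.90 and 10.11 early and 9.06, 9.03 and 9.00 late. The windows were separated by far more than the spread of either, and the change was -0.97 ± 0.11 (1.96-fold, limma adjusted p = 1.7e-06). All 5 measured helicase subunits fell: Mcm5 (-0.89 ± 0.16), Mcm2 (-0.69 ± 0.16), dpa, the fly Mcm4 (-0.69 ± 0.11), Mcm6 (-0.47 ± 0.10) and Mcm3 (-0.44 ± 0.15). The origin complex subunits Orc4 (-0.58 ± 0.14), Orc5 (-0.52 ± 0.16) and Orc1 (-0.46 ± 0.12) also fell, though the Orc5 arrays of the 2 windows overlapped.

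The 2 DNA synthesis genes followed. PCNA, the sliding clamp that holds the polymerase on its template, read 10.73, 10.53 and 10.59 early in control and 9.90, 9.61 and 10.07 late. Every late array lay below every early one, a change of -0.76 ± 0.14 (1.70-fold, limma adjusted p = 0.0003). RnrL, the large subunit of ribonucleotide reductase, which makes deoxynucleotides, fell by 0.43 ± 0.12.

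The G1 and S regulators went different ways. CycE read 9.70, 9.94 and 9.98 early in control and 8.68, 8.91 and 8.50 late. The 2 sets of arrays were well apart, and the change of -1.17 ± 0.16 (2.26-fold, limma adjusted p = 1.2e-05) was the largest among the 33 genes. Its kinase partner Cdk2 (-0.49 ± 0.13) and the E2F partner Dp (-0.31 ± 0.10) fell too. Cdk4 read 7.55, 7.89 and 7.88 early and 8.05, 8.04 and 8.24 late, so its late arrays were the higher ones (0.34 ± 0.10, limma adjusted p = 0.016). CycD, its cyclin, changed by -0.30 ± 0.14 and was not called, nor were the E2F factors E2f1 (-0.14 ± 0.35) and E2f2 (0.16 ± 0.13).

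Of the 2 measured mitotic cyclins, CycB3 fell and CycB did not pass the test. CycB3 read 11.23, 11.17 and 11.27 early in control and 10.69, 10.59 and 10.61 late. The groups did not overlap, with a change of -0.59 ± 0.11 (1.51-fold, limma adjusted p = 0.00021). CycB read 10.56, 10.68 and 10.86 early and 10.61, 10.66 and 10.72 late, which overlap, and its change was -0.03 ± 0.13 with a 95% interval from -0.31 to 0.24. The difference between these 2 cyclins was not tested.

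The 2 activators of the anaphase promoting complex moved in opposite directions. The mitotic activator fzy (the fly Cdc20) read 9.97, 10.20 and 10.24 early in control and 9.57, 9.51 and 9.55 late. Its late arrays were lower without overlap (-0.59 ± 0.12, limma adjusted p = 0.00052). The activator used in G1, fzr (the fly Cdh1), read 9.24, 9.32 and 9.29 early and 9.68, 9.88 and 9.76 late. Here the late arrays were higher without overlap (0.49 ± 0.13, 1.40-fold, limma adjusted p = 0.0056). The spindle checkpoint protein Bub3 fell by 0.58 ± 0.09.

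The remaining mitotic genes build the condensed chromosome, the centromere and the spindle, and each was lower late. The centromeric histone cid read 4.96, 4.93 and 4.98 early in control and 4.14, 3.94 and 4.48 late. Its late arrays were the lower ones, and the difference of -0.77 ± 0.13 is given as a description, since cid passed the filter through early arrays alone. Each listed part of the chromosomal passenger complex fell: its kinase aurB (-0.48 ± 0.11), its scaffold Incenp (-0.57 ± 0.09) and borr (borealin), a subunit that helps target it (-0.61 ± 0.10). Its further subunit Det (deterin), not among the 33, changed by -0.23 ± 0.10 and was not called.

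Among the listed genes of condensin, which compacts mitotic chromosomes, SMC2 fell furthest. It read 8.80, 8.70 and 8.88 early in control and 8.07, 7.96 and 8.17 late. The late arrays were lower (-0.72 ± 0.13, limma adjusted p = 0.00031), and its partners glu, the fly SMC4 (-0.58 ± 0.10), and barr (-0.46 ± 0.12) fell too. The condensin subunits Cap-G and Cap-D2, not among the 33, fell by more (-1.34 ± 0.16 and -0.93 ± 0.12). For cytokinesis, tum (tumbleweed, the RacGAP of centralspindlin) read 8.82, 8.60 and 8.80 early and 7.80, 7.78 and 8.03 late. These did not overlap either (-0.87 ± 0.12, 1.83-fold, limma adjusted p = 1e-05). The spindle motor Klp61F (-0.56 ± 0.12) and scra, the fly anillin (-0.58 ± 0.15), also fell.

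Other markers also moved between the control windows, and their part in these changes was not tested. Of 6 measured muscle markers 6 rose, where 18.3% of all features were called higher. The mean of the list went from 5.26 to 5.54 over early arrays to 5.53 to 8.35 over late arrays. Of 10 hemocyte markers 7 rose (5.85 to 5.97 early, 6.59 to 7.07 late). The 3′ minus 5′ signal of the GAPDH control probe sets, which widens where RNA is less complete, went from 0.76 ± 0.18 to 3.17 ± 0.68 (SD, n = 3), while that of actin was 0.61 ± 0.06 and 0.64 ± 0.26 and that of eIF-4a 2.06 ± 0.12 and 1.82 ± 0.21. Among the control calls, 5 depended on single arrays or on the pooled spread: Orc5, Mcm3, Cdk4 and Dp lost theirs in a fit of the control arrays alone (adjusted p = 0.08, 0.059, 0.084 and 0.061) and without control early replicate 1 (0.097, 0.14, 0.11 and 0.11), and RnrL lost its without control late replicate 1 (0.062). Other single control arrays also ended the calls of Orc5 (late 1 or 2, up to 0.11) and Mcm3 (early 3, late 1 or 2, up to 0.15). The same held for Cdk4 (late 3, 0.082) and Dp (late 1, 0.067).

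The same direction appeared in the other crosses. They share no arrays with the controls or each other, but arrays with the same replicate number varied together across crosses within a window. The crosses are therefore not independent repeats. In the Notch cross 21 of 33 genes (20 without cid) were called lower late and 1 higher, with 9.99% of all features lower and 18.4% higher. In the Ras cross 26 (25 without cid) were lower and none higher (10.7% and 17.8% of features), and in the combined cross 19 (18 without cid) were lower and 1 higher (13.0% and 20.3%). The median changes were -0.46, -0.47 and -0.36, against 0.07, 0.04 and 0.03 over all features.

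Across all 4 crosses 17 of the 33 genes (16 without cid) were called lower each time, where 4.39% of all features were: Orc1, dup, Mcm2, Mcm3, dpa and Mcm5 of the replication genes, CycE of the G1 and S regulators, and CycB3, fzy, Bub3, Incenp, borr, cid, SMC2, glu, Klp61F and tum of the mitotic genes. Orc4, Orc5, RnrL, Dp and scra were called lower in 3 crosses, and Mcm6, PCNA, Cdk2, aurB and barr in 2. CycD, Cdk4, E2f1, E2f2, CycB and fzr were called lower in none. For borr, whose call used the brighter of its probe sets, the other probe set changed by -0.67 in control, -0.03 in the Notch cross, -0.35 in the Ras cross and -0.31 in the combined cross, so the 2 did not match in the Notch cross. Of the 17, 8 kept all 4 calls under every alternative tried: dup, Mcm5, CycE, CycB3, fzy, Bub3, Incenp and tum. The count of called genes depended on single arrays in the Ras cross, at 17 without Ras early replicate 1, and in the combined cross, at 13 without combined late replicate 2.

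CycE also had the largest change of the 33 genes in each of the other crosses. The change of CycE was -2.15 ± 0.16 in the Notch cross, -1.26 ± 0.16 in the Ras cross and -1.93 ± 0.16 in the combined cross. For dup the changes were -1.25, -0.82 and -1.25, and for Mcm5 they were -1.28, -1.09 and -0.96, all called. PCNA changed by -0.20 ± 0.14 in the Notch cross and -0.17 ± 0.14 in the combined cross, neither called, and fell by 0.50 ± 0.14 in the Ras cross. Cdk4 rose in the Notch cross (0.56 ± 0.10) and the combined cross (0.39 ± 0.10) and was not called in the Ras cross (0.18 ± 0.10). The late rise of fzr was called in control only, at 0.16 to 0.28 elsewhere, and its difference from control was not called (adjusted p = 0.57, 1.0 and 0.7 in limma).

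**Figure D2:**
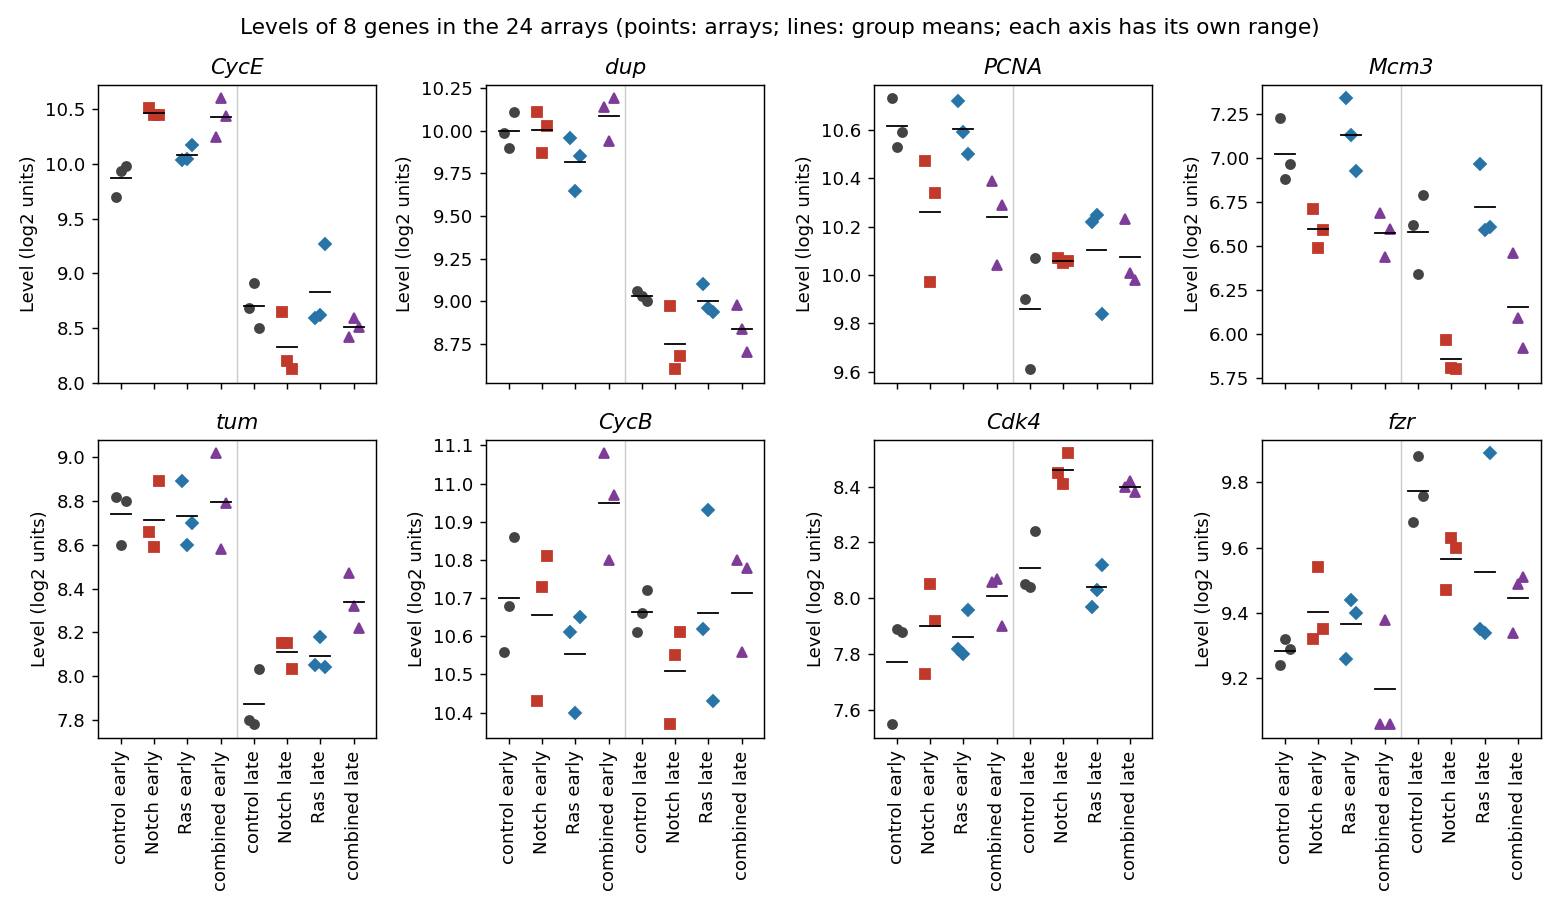
Log2 GCRMA signal of CycE, dup, PCNA, Mcm3, tum, CycB, Cdk4 and fzr on every array, 1 panel per gene, with the early groups left of the grey line and the late groups right of it, and a bar at the mean of 3 arrays; each panel has its own range. CycE starts higher in the Notch early arrays (10.45 to 10.51) than in control early (9.70 to 9.98), and Mcm3 is lowest in the Notch late arrays (5.80 to 5.97).

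Whether activated Notch or Ras altered the size of the window change was tested as a difference of changes. In the Notch cross only CycE was called, where 1.60% of features were: its fall exceeded that in control by -0.97 ± 0.23 (95% interval -1.45 to -0.50, limma adjusted p = 0.03). That call did not survive leaving out control early replicate 1, control late replicate 2, any of the 3 Notch early arrays, or Notch late replicates 2 or 3, with adjusted p between 0.051 and 0.098. None of the 33 was called for the Ras cross (0.0697% of features) or the combined cross (2.55%), where 6 had an unadjusted p under 0.05. In the combined cross CycE differed from control by -0.76 ± 0.23 (adjusted p = 0.095) and PCNA by 0.59 ± 0.20 (0.15).

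Comparisons with control within a window share the control arrays, so their values stand side by side and are not independent. Few of the genes passed. Early, 2 of 33 were called in the Notch cross (5.42% of features called), none in the Ras cross (0.366%) and 2 in the combined cross (6.96%). Late, the counts were 3 (13.7%, with 6.22% higher), 0 (2.16%) and 2, cid among them (15.1%, with 7.64% higher). Without the replicate block the shares of these genes called thus lay near the background early and below it late.

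**Figure D3:**
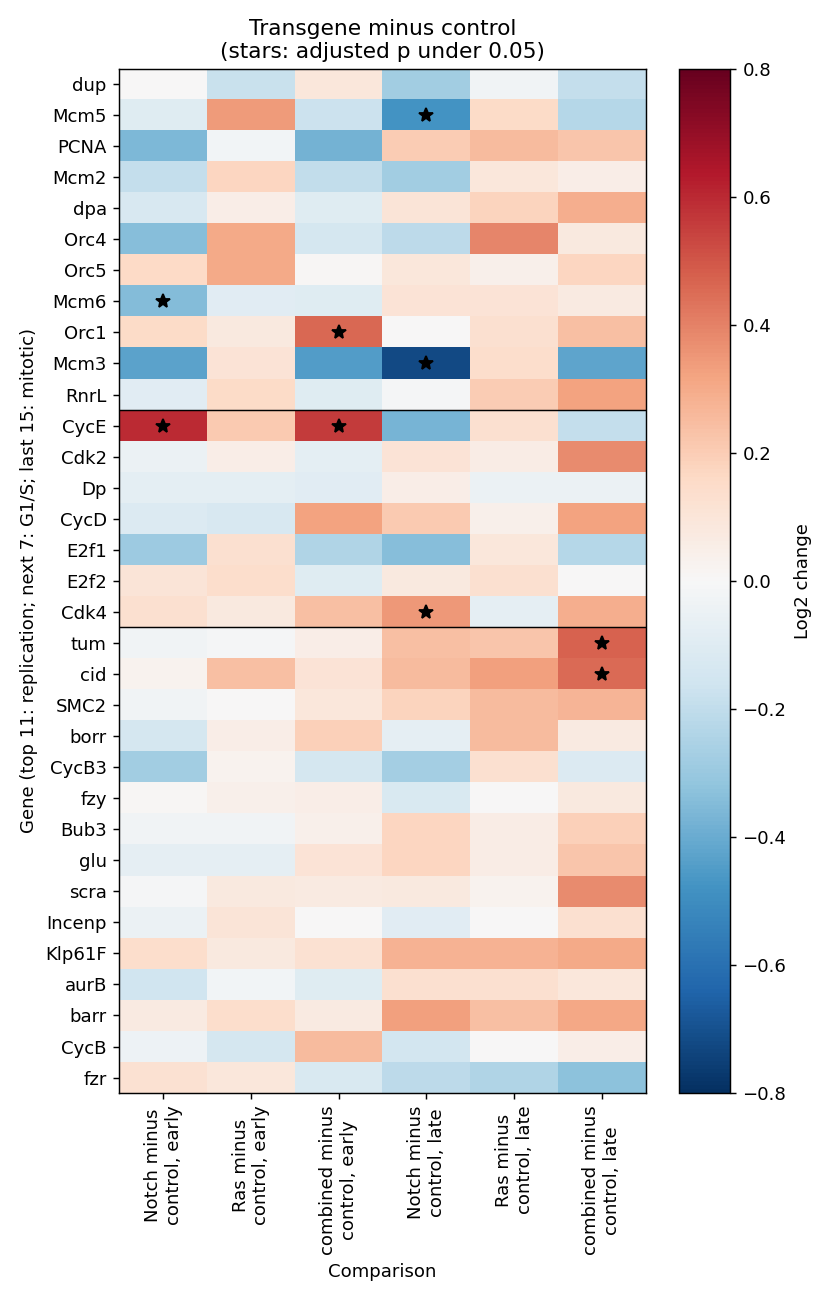
Colour map of the difference from control (log2, limma estimate; red higher, blue lower), with the 33 genes as rows and the Notch, Ras and combined crosses in the early and late windows as columns; stars mark an adjusted p under 0.05. Most cells are pale, and the deepest are CycE at 0.60 in the Notch early comparison and Mcm3 at -0.72 in the Notch late comparison.

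CycE was higher than control early wherever Notch was activated. Against 9.70, 9.94 and 9.98 in control, the Notch early arrays read 10.51, 10.45 and 10.45, the combined early arrays 10.25, 10.60 and 10.44, and the Ras early arrays 10.04, 10.05 and 10.17. All 6 arrays with activated Notch lay above all control arrays, and so did every Ras early array. The differences were 0.60 ± 0.16 in the Notch cross (limma adjusted p = 0.028) and 0.56 ± 0.16 in the combined cross (0.037), while the Ras difference of 0.21 ± 0.16 was not called. Late, CycE read 8.65, 8.20 and 8.12 in the Notch cross, 8.42, 8.59 and 8.51 in the combined cross, and 8.59, 8.62 and 9.27 in the Ras cross, against 8.68, 8.91 and 8.50 in control. The late arrays overlapped control in the combined and Ras crosses and, by 1 array, in the Notch cross, and no late difference was called (-0.37, -0.19 and 0.13). Both early calls were lost with no filter (adjusted p = 0.054 and 0.071) and when some single arrays were left out: in the Notch cross control early replicates 1 or 2 or any Notch array (adjusted p up to 0.16), and in the combined cross any control array or combined replicates 2 or 3 (up to 0.19).

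Mcm3 was the clearest of the genes lower with activated Notch. Its late arrays read 5.97, 5.81 and 5.80 in the Notch cross and 6.46, 6.09 and 5.92 in the combined cross, against 6.62, 6.34 and 6.79 in control and 6.97, 6.59 and 6.61 in the Ras cross. Every Notch late array was below every control late array, while the combined arrays overlapped them. The Notch difference was -0.72 ± 0.15 (1.65-fold, limma adjusted p = 0.0018), called under all 16 alternatives tried, and the combined difference was -0.42 ± 0.15 (0.064). Early, Mcm3 differed by -0.43 ± 0.15 in the Notch cross and -0.45 ± 0.15 in the combined cross, neither called.

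A further pair of helicase genes was called lower in the Notch cross, each in 1 window only. Early, Mcm5 averaged 8.84 in the Notch cross against 8.94 in control. Late, Mcm6 averaged 8.54 in the Notch cross against 8.43 in control, and neither of these differences was called. Mcm5 read 7.40, 7.62 and 7.68 in Notch late arrays against 7.88, 8.21 and 8.04 in control late, without overlap (-0.48 ± 0.16, limma adjusted p = 0.046). Mcm6 read 8.44, 8.54 and 8.68 in Notch early arrays against 8.75, 8.98 and 8.98 in control early, again without overlap (-0.35 ± 0.10, 0.042). Neither call was stable: Mcm5 lost it with median centring (0.076), quantile normalisation (0.052), no filter (0.063) or the compared arrays alone (0.071), and without control late replicates 2 or 3 or any Notch late array (up to 0.18). Mcm6 lost it with both scalings (0.22 and 0.18), with the compared arrays alone (0.19), and without control early replicates 2 or 3 or Notch early replicates 1 or 2 (up to 0.19).

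The other genes called against control were higher. Cdk4 read 8.45, 8.41 and 8.52 in Notch late arrays against 8.05, 8.04 and 8.24 in control late (0.35 ± 0.10, limma adjusted p = 0.026), with no overlap. Orc1 read 7.27, 7.21 and 7.30 in combined early arrays against 6.64, 6.98 and 6.78 in control early (0.46 ± 0.12, 0.02), also apart. In combined late arrays tum read 8.47, 8.32 and 8.22 against 7.80, 7.78 and 8.03 in control late (0.47 ± 0.12, 0.0083), without overlap. For cid the readings were 4.68, 4.52 and 4.72 against 4.14, 3.94 and 4.48, a difference of 0.45 ± 0.13 given as a description. This gene passed the filter through early arrays with a transgene alone, and none of its late arrays reached log2 5. Its call (limma adjusted p = 0.023) is therefore not read as a result. Fitted on the compared arrays alone, Cdk4, tum and cid were not called (0.1, 0.051 and 0.12). Leaving out 1 array ended the call of Cdk4 (control late replicates 1 or 2, Notch late 1 or 3, up to 0.1), of Orc1 (control early 1 or 3, combined early 1 or 3, up to 0.14) and of cid (control late 1 or 2, combined late 1 or 3, up to 0.16), and none ended that of tum.

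Arrays with the same replicate number varied together within a window, and a fit with the number as a block made more calls. With the block, 4 genes were called in the Notch early comparison (8.63% of features), adding Mcm3 (-0.43) and CycB3 (-0.28), and 7 in the Notch late comparison (21.5%), adding dup (-0.28), CycB3 (-0.27), barr (0.33) and Klp61F (0.28). In the combined cross 4 were called early (12.7%), adding Mcm3 (-0.45) and PCNA (-0.38). Late, 11 were called (22.0%), adding Mcm3 (-0.42) and fzr (-0.33) as lower and dpa (0.29), RnrL (0.32), Cdk2 (0.38), Cdk4 (0.29), barr (0.31), Klp61F (0.30) and scra (0.38) as higher. With the block the Ras cross had no call early (0.767%) or late (4.90%). The share of these genes called with the block was above that of all features in the combined late comparison. The 11 calls there include cid, whose late call is not read as a result. In the Notch early, Notch late and combined early comparisons the share was close to that of all features.

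Activated Ras alone left no gene called against control. Early differences ran from -0.18 (dup) to 0.34 (Mcm5), and late ones from -0.24 (fzr) to 0.39 (Orc4), with 28 of 33 above 0 late. At an unadjusted p under 0.05 there were 2 genes early and 5 late.

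Adding Ras to Notch was compared directly, as combined minus Notch, and no gene was called in either window (0.227% of features early, 1.83% late), with 5 and 4 at an unadjusted p under 0.05. Differences ran from -0.24 (fzr) to 0.42 (CycD) early and from -0.12 (fzr) to 0.33 (Mcm2) late. Adding Notch to Ras, as combined minus Ras, gave 5 calls early (11.0% of features): Orc1 (0.38) and CycD (0.44) were higher and Orc4 (-0.44), Mcm3 (-0.56) and Mcm5 (-0.51) lower. Late, Cdk4 was higher (0.36) and Mcm3 lower (-0.57), with 11.3% of features called. Both late calls were lost with the compared arrays alone (adjusted p = 0.088 and 0.13), that of Cdk4 without any combined late array or Ras late replicates 1 or 2 (up to 0.09), and that of Mcm3 without combined late replicates 2 or 3 or Ras late replicate 1 (up to 0.11). The early calls all had an adjusted p between 0.02 and 0.049, and with any 1 of the 6 arrays left out at most 1 gene was called. With the replicate block there were 9 calls early (19.7%) and 5 late (18.7%). The Notch by Ras interaction, which asks whether the combined effect departs from the sum of both, was called for no gene early (0.139% of features) or late (0.227%), with 3 and 0 at an unadjusted p under 0.05.

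Replication genes stood lower relative to mitotic genes in late arrays with activated Notch than in late control arrays. Each gene was expressed relative to its control early mean and averaged within its class on each array. The class means are a description without a test, since the genes were chosen together. The mitotic mean includes cid, which reached log2 5 on no late array. The late mean of cid was 4.19 in control, 4.44 in the Notch cross, 4.64 in the combined cross and 4.51 in the Ras cross. Class values without cid are not given here, so its share in the differences below is left unstated. In control late arrays the replication mean was -0.63 ± 0.10 and the mitotic mean -0.50 ± 0.06 (SD, n = 3), a replication minus mitotic difference of -0.13 ± 0.05. In Notch late arrays the means were -0.76 ± 0.06 and -0.44 ± 0.07, and the difference was -0.33 ± 0.02, each array lying between -0.34 and -0.30. Combined late arrays gave -0.57 ± 0.08 and -0.33 ± 0.08, a difference of -0.25 ± 0.03. The replication class did not move as 1 body. Against control late, its median in the Notch cross was -0.01 (mean -0.14, lowest Mcm3 at -0.72), with 4 of 11 genes above 0. In the combined cross 8 of 11 lay above control late (mean 0.05), and the mitotic genes stood higher still (mean 0.17). The Ras late difference was -0.09 ± 0.04, within the spread of control.

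Early, the replication minus mitotic difference was 0.07 ± 0.02 in the Ras cross, -0.15 ± 0.03 in the combined cross and -0.12 ± 0.10 in the Notch cross, whose arrays ran from -0.20 to -0.00. G1 and S regulators averaged -0.27 ± 0.04 in control late arrays, and -0.26 ± 0.12, -0.20 ± 0.05 and -0.23 ± 0.11 in the Notch, combined and Ras late arrays. The G1 and S values of the 4 crosses overlapped in the late window.

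**Figure D4:**
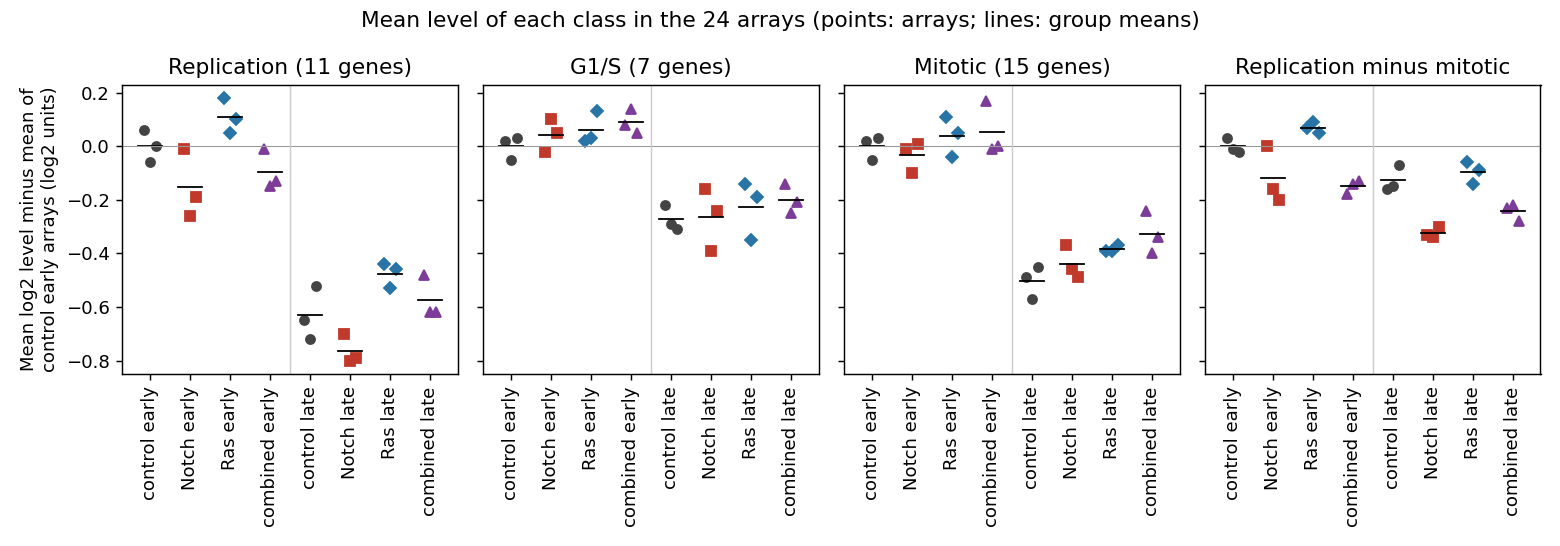
Mean log2 difference from the control early mean over the replication, G1 and S, and mitotic genes on every array, by cross and window, with the replication minus mitotic difference in the rightmost panel; points are arrays and lines group means. Late arrays lie below early arrays of the same cross in the replication and mitotic classes. With cid among the mitotic genes, the replication minus mitotic gap is widest in the Notch late arrays, at -0.34 to -0.30.

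Markers of several cell types changed with activated Notch. Of all features, 5.42% were called early and 13.7% late in the Notch cross against control. In the combined cross the shares were 6.96% and 15.1%. Of 12 measured neuroblast markers 9 were lower and 2 higher in the Notch cross in each window (higher: dpn and esg early, sna and esg late), with list means over arrays of 5.72 to 5.86 early against 7.69 to 7.77 in control, and 5.70 to 5.87 late against 7.88 to 8.02. The combined cross gave the same counts, at 5.78 to 5.79 early and 5.76 to 5.95 late, and the Ras cross lay at 7.85 to 7.98 and 7.92 to 8.31. Amnioserosa markers were lower for 5 of 8 early and 3 of 8 late in both the Notch and combined crosses, and neuron markers for 1 of 3 early, with 1 higher, and 2 of 3 late. Muscle markers were lower for 1 of 6 early in both crosses, and late for 2 of 6 in the Notch cross and 4 of 6 in the combined cross, at 5.62 to 6.11 and 5.32 to 5.84 against 5.53 to 8.35 in control. Hemocyte markers were lower for 2 of 10 early in both crosses. Late they were lower for 7 of 10 in the Notch cross and 4 of 10 in the combined cross, with 1 higher in each. Late, hemocyte markers averaged 6.10 to 6.21 in the Notch cross and 6.01 to 6.37 in the combined cross against 6.59 to 7.07 in control. The late GAPDH 3′ minus 5′ signal was 1.61 ± 0.15 in the Notch cross and 1.98 ± 0.58 in the combined cross against 3.17 ± 0.68 in control (SD, n = 3). For actin the late values were 0.62 ± 0.22, 0.43 ± 0.16 and 0.64 ± 0.26 in that order, and for eIF-4a they were 1.86 ± 0.21, 1.76 ± 0.04 and 1.82 ± 0.21, so these 2 controls differed less between crosses than GAPDH. The part of these shifts in the values of the replication and mitotic genes was not tested.

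Many other genes of the same pathways also fell between the control windows. Their lists were chosen by function but with earlier results of these data known, so they are not an independent check. In this comparison 13.1% of all features were called lower and 18.3% higher. Of 30 measured further replication genes 22 fell and none rose, with a median of -0.52, among them Ts (thymidylate synthase, -1.06 ± 0.14), RfC3 (a clamp loader subunit, -0.95 ± 0.17) and Prim1 (a primase subunit, -0.95 ± 0.24). Of 41 further mitotic genes 22 fell and 1 rose, with a median of -0.52, among them Cap-G (a condensin subunit, -1.34 ± 0.16), spd-2 (a centrosome protein, -1.19 ± 0.17) and Cks30A (a Cdk1 binding protein, -1.17 ± 0.12), while tacc, a microtubule protein, rose (0.29 ± 0.11). Of 10 further cycle regulators 4 fell, including Rbf2 (a retinoblastoma family protein, -1.01 ± 0.16), grp (the fly Chk1, -0.61 ± 0.09) and CycH (-0.56 ± 0.10). In the other crosses, each with its own background given above, the replication genes that fell numbered 19 in the Notch cross, 21 in the Ras cross and 10 in the combined cross, and the mitotic genes 20, 24 and 21. The crosses were not tested against each other on these counts. Some of the counted genes lay near the filter, as cid did. In control, PolA2 averaged 4.99 early and 4.24 late, Prim2 5.26 and 4.35, and sub, of the mitotic list, 5.13 and 4.53. Their late means lay under log2 5 in every cross. They thus passed the filter largely through early arrays, which favours a fall, and the counts were not repeated without them.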

How the data were processed

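RNA from whole embryos was hybridised as labelled cRNA to 24 Affymetrix DrosGenome1 arrays. The deposited values are log2 signals that the authors made with GCRMA, which corrects the background by probe sequence, normalises arrays and summarises probes, per the submitters' processing notes, which also name limma. No version of either tool is given in the sources used here. Of 14010 probe sets, 44 controls were left out, and 12443 had 1 gene symbol, 327 several and 1196 none in the platform annotation, so genes were named only from probe sets with 1 symbol. A feature was tested where log2 reached 5 in at least 3 arrays, with the brightest probe set per gene, leaving 5736.

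Group differences come from limma 3.58.1 (R 4.3.3), fitted to 8 group means, with 16 residual and 4.09 prior degrees of freedom, and p-values were adjusted by the Benjamini-Hochberg method over all features within each comparison. The fit was also run on simulated data with independent noise on each array. That setting leaves out the shared variation of arrays with the same replicate number, so it does not test the fit under it. Replicate arrays differed by a root mean square of 0.196 to 0.462, and the number of arrays limits the precision. The labels give each array of a group as an independent experiment, with collections made in parallel sets. Deviations from the group means correlated in all 36 pairs of arrays sharing a number within a window (r from 0.156 to 0.673, median 0.409, against a median of -0.191 for other numbers). Across windows only 29 of 48 such pairs exceeded 0.1, so numbers were taken to pair arrays within a window, and values with the number as a block are given where they moved a call.

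Alternatives covered scaling, filters, probe set choice, the variance prior, array weights, the arrays fitted, the replicate block and each array left out in turn. Genes named one by one are every measured gene of the list, with values per array for the gene changing most in each role and for each called against control. From the further lists up to 3 called genes with the largest change are named. The genes, lists and comparisons were chosen with earlier results of these data known. Sequences are not shown.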

Additional observations from a re-analysis of the deposited data

Results flagged for a closer look

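The late fall of CycE in the Notch cross differed from that in control by -0.97 on the log2 scale. It was the one such difference among the 33 genes that passed the test of the difference itself (limma adjusted p = 0.03), where 1.60% of features did. The call was lost in 7 fits with 1 array left out, any Notch early array among them (limma adjusted p from 0.051 to 0.098). The change was -2.15 in the Notch cross and -1.17 in control. Every Notch early array lay above every control early array, and so did every Ras early array. In the same Notch early arrays 9 of 12 neuroblast markers were lower and 2 were higher, dpn (1.55) and esg (1.53). Of all features 5.42% were called in that comparison. The window change of dpn, chosen after its values were seen, also differed from control (-2.19, limma adjusted p = 0.0032), as did that of sna, upwards (1.28, 0.0056). Their part in the CycE difference was not tested.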

How the results depend on the processing

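In the late minus early comparisons of control and the Notch cross, the count of called genes stayed within 1.5 times of its value under all alternatives (25 to 30 against 29, and 18 to 24 against 22). In the Ras cross 26 became 17 in a fit of only the arrays compared, and 17 to 23 when 1 array was left out. In the combined cross 20 became 13 to 21 with 1 array left out. Counts against control were small and moved with most settings. For Notch early, 2 became 1 with median centring, 1 with quantile normalisation, 1 with no filter, 1 with only the arrays compared, 4 with array weights, 4 with the replicate block within the window, and 0 to 1 with 1 array left out. For combined early, 2 became 1 with no filter, 5 with array weights, 4 with the replicate block within the window, and 0 to 1 with 1 array left out. For Notch late, 3 became 6 with the replicate block over both windows, 7 with it within the window, 1 with only the arrays compared, and 1 to 3 with 1 array left out. For combined late, 2 became 5 with quantile normalisation, 1 with a filter at log2 6, 7 with array weights, 10 with the replicate block, 11 with it within the window, 0 with only the arrays compared, 1 to 3 with 1 array left out, and 1 without cid, an alternative chosen after seeing the data. For Ras late, 0 became 0 to 1 with 1 array left out. For combined minus Ras, 5 early became 1 with no filter, 13 with array weights, 8 with the replicate block, 9 with it within the window and 0 to 1 with 1 array left out. The 2 late became 4 and 5 with the 2 blocks, 0 with only the arrays compared and 0 to 2 with 1 array left out. The replicate block moved no other count by more than 1.5 times. For the window change, the 1 call in the Notch cross became 2 with array weights and 0 to 2 with 1 array left out, and the 0 in the combined cross became 3 with array weights and 1 with only the arrays compared. With 1 control array left out, the uncalled late minus early change of E2f1 ran from -0.32 to 0.00 (without control early replicate 1) and that of CycB from -0.10 to 0.05 (without control early replicate 3). CycD was called lower with median centring (adjusted p = 0.025), quantile normalisation (0.035) and array weights (0.024). The replication minus mitotic difference ran, with 1 array left out, from -0.24 to -0.15 for the Notch window change (-0.20), from -0.18 to -0.08 for Notch against control early (-0.12) and from -0.07 to 0.03 for combined minus Notch early (-0.03). Scaling moved the share of higher among all features called late against early from 64.9% to 47.4% in the Notch cross, 62.5% to 42.6% in the Ras cross and 61.1% to 47.2% in the combined cross with median centring. The cause of these shifts was not tested. Signal limits what can be said of cid, which reached log2 5 on 7 of 24 arrays, and of Orc2 and Bub1.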

Other observations

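In the late window, further cell cycle genes stood higher in the combined cross than in control, where 7.64% of all features were called higher. Of 30 further replication genes 8 were called higher and none lower, among them PolE1 (a replicative polymerase subunit, 0.76 ± 0.22), RPA2 (a single-strand DNA binding protein, 0.68 ± 0.10) and Ts (0.67 ± 0.14). Of 41 further mitotic genes 10 were called higher and none lower, among them spd-2 (0.78 ± 0.17), Cks30A (0.71 ± 0.12) and mars, a spindle protein (0.69 ± 0.16). Of 10 further regulators 2 were called higher, ago, the F-box protein that targets Cyclin E (0.83 ± 0.19), and lok, the fly Chk2 (0.49 ± 0.15). The window change differed from control for RPA2 (0.82 ± 0.14, limma adjusted p = 0.0014), RPA3 (0.84 ± 0.20, 0.029) and Ts (0.77 ± 0.19, 0.036). Their own late minus early changes in the combined cross were -0.12 ± 0.10, 0.08 ± 0.14 and -0.29 ± 0.14, none called, against -0.94 ± 0.10, -0.76 ± 0.14 and -1.06 ± 0.14 in control. In the Notch cross the late counts called higher were 2, 5 and 1 in the same lists, with 6.22% of features called higher.

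E2f1 had the widest spread of the 33 genes, with an SE of 0.35 for each difference between groups. Its late arrays of replicate 1 read 8.64 in control, 8.44 in the Notch cross, 8.98 in the combined cross and 9.28 in the Ras cross. The other late arrays lay between 7.34 and 8.14, so replicate 1 was highest in all 4 crosses.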
